A study of Mus musculus with 6 samples.

Results

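DNA replication and S phase genes were examined in mouse pancreatic stellate cells (PSCs), which give rise to fibroblasts in pancreatic ductal adenocarcinoma (PDAC). The group holds 55 genes, which were matched by Ensembl identifier to named genes of the licensing, helicase, polymerase, nucleotide supply and S phase repair machinery. All 55 were found among the 55426 features of the table, and all 55 were among the 16207 genes with enough counts to be tested. RNA was sequenced from 6 PSC samples, 3 kept in normoxia (21% O2) and 3 in hypoxia (1% O2), each for 48 h. In both groups the PSCs were primary cells from wild-type C57BL/6 mice, and both groups were grown across a transwell membrane from organoids of mT3, a mouse PDAC cell line. PSCs without tumor organoids were not analysed here. The methods describe primary PSC lines of low passage. The labels do not say whether the 3 samples of a group came from separate lines or animals, so the p-values measure only the spread between these samples.

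Before a cell copies its DNA, the origin recognition complex, with CDC6 and CDT1, loads the MCM helicase onto chromatin, a step called licensing. In S phase the helicase is switched on by CDC45, the GINS complex and the kinase CDC7, and the DNA polymerases, a sliding clamp and enzymes that supply deoxynucleotides then carry out synthesis. Many of these genes are transcribed periodically under the E2F factors and are low in cells that have left the cell cycle.

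Counts per sample totalled 24749601 to 25914892 in normoxia and 25847719 to 31925054 in hypoxia. Levels are given below as CPM, which are counts scaled to a library of 1000000, corrected for composition (TMM). All 10 of the known hypoxia-induced genes that were listed as a check of the labels were higher in hypoxia, with a median log2 fold change of 2.01. The 12 fibroblast markers summed to 28462 to 35660 CPM in normoxia and 30496 to 35343 CPM in hypoxia, so the groups overlapped. Taken singly, 2 of the 12 were lower and 2 higher at the thresholds given below (16.7% each, against 15.3% and 18.9% of all tested genes). The 12 epithelial markers summed to 32.3 to 34.7 CPM in normoxia and 86.0 to 90.6 CPM in hypoxia, and of the 4 that could be tested Krt19 and Sox9 rose, while Epcam and Cdh1 were at or near 0 and Ocln and Esrp1 at 0. The 6 acinar markers summed to 10.1 to 12.6 CPM in normoxia and 8.23 to 9.33 CPM in hypoxia, nearly all of it Cela1, with Cpa1, Ptf1a and Ctrb1 at 0, and the T cell gene Cd3e was also at 0. Macrophage markers were present in every sample and most were lower in hypoxia, as was the share of counts from the mitochondrial chromosome, which was 0.985% to 1.43% in normoxia and 0.645% to 0.740% in hypoxia. The part of any of these in the changes below was not tested.

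Most replication genes were lower in hypoxic PSCs. Genes were called at a fold change beyond 1.5 in either direction with an adjusted p under 0.05, in a test across all genes. Of the 55 genes, 34 fell and 1 rose, Pola2, while 20 were not called. Across all tested genes 15.3% were called lower and 18.9% higher. The median log2 fold change of the 55 genes, hypoxia against normoxia, was -0.75, against a median near 0 over all tested genes, and the values ran from -2.74 for Rrm2 to 0.89 for Pola2. At a fold beyond 2, 21 of the 55 genes were called lower, where 7.57% of all genes were. Without a fold limit 41 were lower and 4 were higher, against 31.0% and 31.8% of all genes. The remaining 10 genes, Orc3, Orc4, Cdt1, Gins3, Cdc7, Prim2, Pold1, Dut, Brca2 and Ccne2, did not pass the adjusted p.

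**Figure D1:**
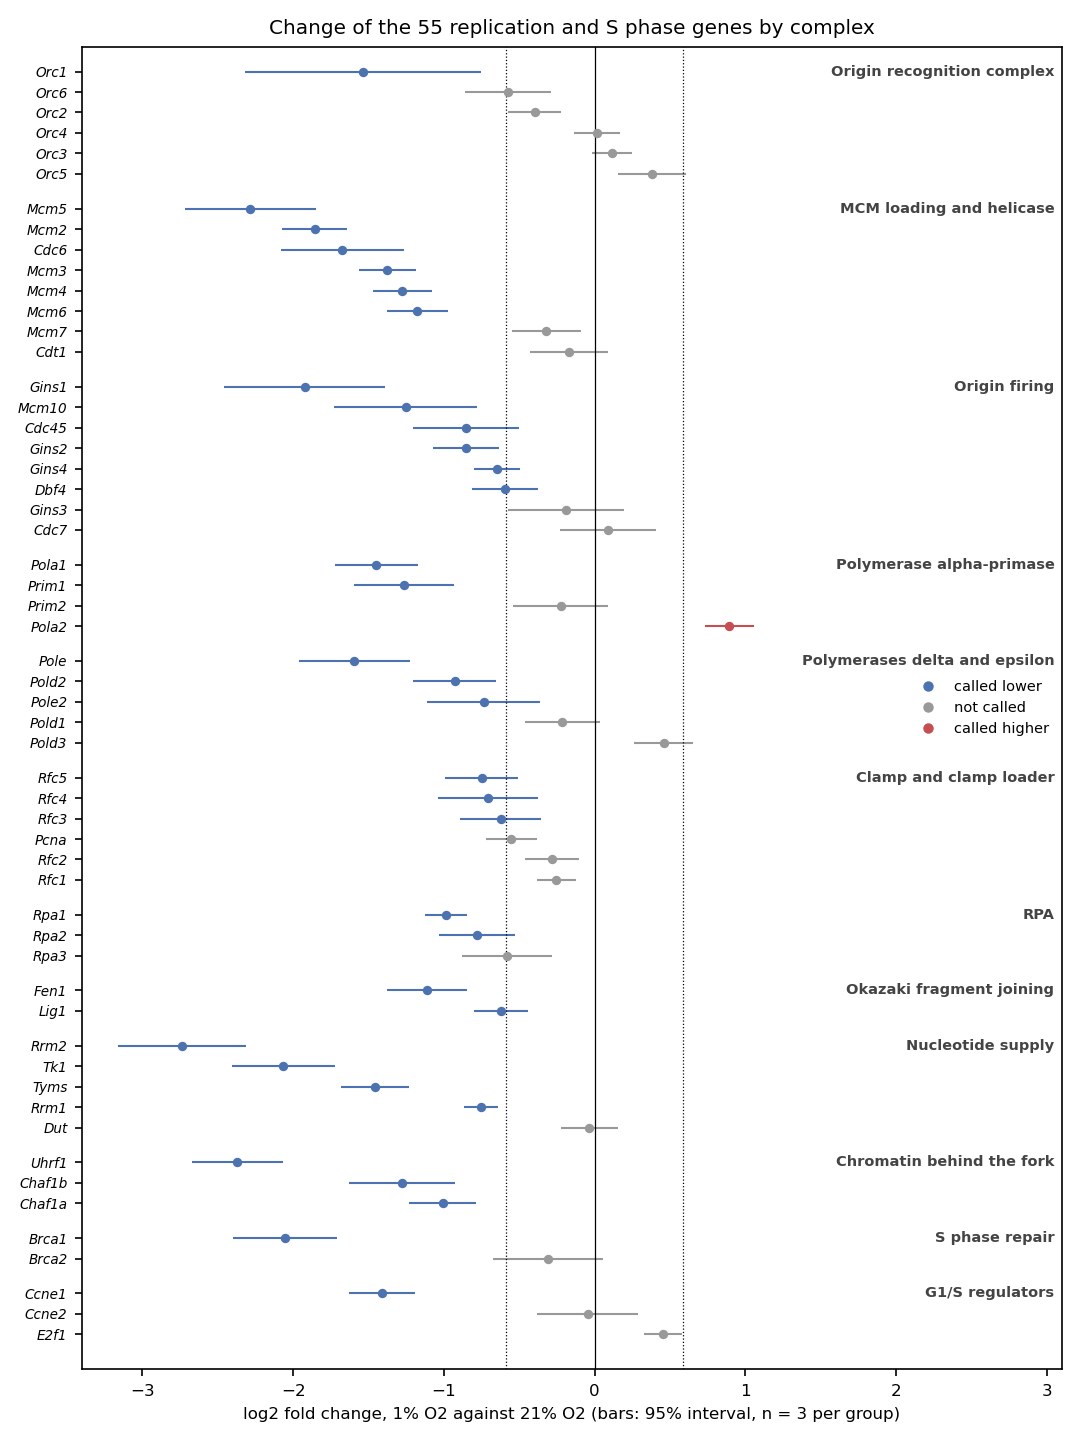
Log2 fold change of each of the 55 genes at 1% O2 against 21% O2, grouped by complex, with 95% intervals (n = 3 per group) and dotted lines at a fold change of 1.5. Most points lie to the left of the lower line, the points of the origin recognition complex other than Orc1 lie nearer to 0, and Pola2 at 0.89 is the only point to the right of the upper line that was called.

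Summed over the 55 genes, the level was 1091, 1235 and 1076 CPM in the normoxic samples and 733, 751 and 744 CPM in the hypoxic ones. The sum was thus 1134 ± 87.7 CPM in normoxia and 743 ± 8.91 CPM in hypoxia (mean ± SD, n = 3), or 34.5% lower in hypoxia, and the groups did not overlap. In 43 of the 55 genes every hypoxic sample lay below every normoxic sample, and in 5 every hypoxic sample lay above, where 34.0% and 34.9% of all tested genes were so arranged. In bulk RNA, fewer cells in S phase and less of each transcript per cell cannot be told apart.

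The 14 macrophage markers, among them Lyz2, Csf1r and C1qa, were above 0 in every sample, and 9 of them fell while none rose (median log2 fold change -1.03). They summed to 1023, 1813 and 1425 CPM in the normoxic samples and to 528, 955 and 647 CPM in the hypoxic samples, without overlap between the groups. Without Lyz2, which held most of the sum, they were at 371, 649 and 542 CPM in normoxia and 213, 408 and 269 CPM in hypoxia, and the groups overlapped, as they did in 8 of the 14 markers taken singly. Their part in the fall of the replication genes was not tested. Normoxia replicate 2, which had the highest macrophage marker sum, was also the highest normoxic sample in 44 of the 55 replication genes. Normoxia replicate 3 had a higher marker sum than replicate 1 (1425 against 1023 CPM) but a lower sum of the replication genes (1076 against 1091 CPM). In hypoxia both sums ranked the samples alike, with the replication genes at 733 to 751 CPM. Without normoxia replicate 2, 34 genes were called lower and the median log2 fold change was -0.66.

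**Figure D2:**
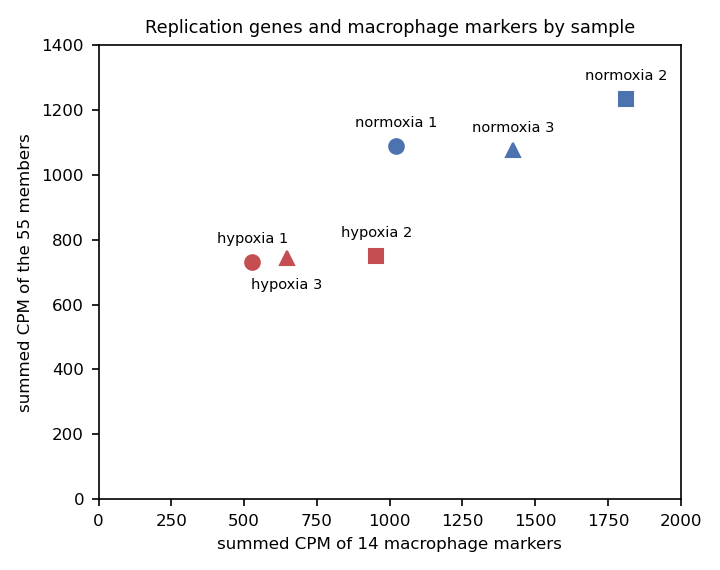
Summed level of the 55 replication genes (vertical axis, CPM) against the summed level of the 14 macrophage markers (horizontal axis, CPM) in each of the 6 samples, both axes starting at 0. The normoxic samples lie to the right of and above the hypoxic samples, and normoxia replicate 2 is highest on both axes (1813 and 1235 CPM). Without Lyz2 the macrophage marker sums of the groups overlap (371 to 649 CPM in normoxia and 213 to 408 CPM in hypoxia).

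The origin recognition complex, which marks the sites where helicases are loaded, had a median log2 fold change of -0.19 over its 6 genes, of which Orc1 fell and none rose. Orc1, whose protein binds and hydrolyses ATP in the complex and is regulated through the cell cycle, was at 1.69, 1.71 and 1.46 CPM in normoxia and 0.275, 0.511 and 0.849 CPM in hypoxia. The groups did not overlap, and the log2 fold change was -1.54 ± 0.35 (SE, adjusted p = 0.00394), although the gene had only 175 counts over all samples. Orc1 shares 10.8% of its exon bases with Gm12743 on the other strand, which had 76 counts, so its value is uncertain. None of the other subunits was called. Orc2 (-0.40), which shares 29.8% of its exon bases with Nif3l1 on the other strand, and Orc6 (-0.58), which shares 6.93% with Vps35 (25794 counts against 2276 for Orc6), passed the adjusted p below the fold limit, and both values are uncertain since the strand setting of the counting is not given in the sources used here. Orc3 (0.12, 95% interval -0.02 to 0.25) and Orc4 (0.02, 95% interval -0.13 to 0.17) did not pass the adjusted p. Orc4 shares 5.98% of its exon bases with Acvr2a on the other strand (4331 counts against 4137 for Orc4), so its value is uncertain too. Any ratio to the mean of Orc2 to Orc5 carries the same doubt. Orc5 was at 9.74, 11.1 and 12.2 CPM in normoxia and 14.6, 14.7 and 13.8 CPM in hypoxia. All hypoxic samples lay above the normoxic ones, with a log2 fold change of 0.38 ± 0.10 (adjusted p = 0.00862) that was within the fold limit. The log2 ratio of Orc1 to the mean of Orc2 to Orc5 was 1.09 ± 0.23 (SE) lower in hypoxia, and it did not overlap between groups (exact two-sided permutation p = 0.1, the smallest that 3 against 3 samples allow, and 0.1 after adjustment over the 10 ratios computed). This difference was -1.75 when no offset of 0.5 CPM was added, since Orc1 was close to that offset.

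Most genes of helicase loading and of the helicase itself fell. Of 8 genes, Cdc6, Mcm2, Mcm3, Mcm4, Mcm5 and Mcm6 fell and none rose, with a median log2 fold change of -1.33. Mcm5, a subunit of the ring-shaped helicase on chromosome 8 (GRCm38, 75109569 to 75128439, plus strand), was at 20.5, 29.4 and 18.7 CPM in normoxia and 4.12, 5.62 and 4.27 CPM in hypoxia. The lowest normoxic sample was thus well above the highest hypoxic one, and Mcm5 was 4.87-fold lower (log2 fold change -2.28 ± 0.19, adjusted p = 1.09e-05). Mcm2 was 3.62-fold lower, Mcm3 2.59-fold, Mcm4 2.42-fold and Mcm6 2.26-fold. Cdc6, the ATPase that joins the origin recognition complex to recruit the helicase, went from 5.03 ± 0.800 to 1.58 ± 0.132 CPM (SD, log2 fold change -1.67). Its partner Cdt1, which brings the helicase to the origin, was at 15.4, 18.1 and 14.8 CPM in normoxia and 12.7, 16.1 and 14.1 CPM in hypoxia. Here the groups overlapped, and the difference of -0.17 ± 0.11 did not pass the test (adjusted p = 0.216, 95% interval -0.43 to 0.09). The gene of its inhibitor geminin, Gmnn, fell (log2 fold change -0.95), and the log2 ratio of Gmnn to Cdt1 was 0.69 ± 0.08 (SE) lower in hypoxia, with no overlap (exact p = 0.1).

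The 6 subunits of the MCM ring are present in equal number in the protein complex, but their transcripts did not move in step. Per kb of exon, in normoxia Mcm2 to Mcm7 stood at 4.17, 7.61, 8.49, 5.72, 7.77 and 9.26 CPM per kb, in numerical order. In hypoxia they stood at 1.15, 2.93, 3.51, 1.17, 3.44 and 7.42 CPM per kb. Mcm7 thus kept 80.1% of its normoxic mean, whereas Mcm5 kept 20.5%. Mcm7 was at 37.5, 48.5 and 37.0 CPM in normoxia and 32.5, 33.7 and 32.4 CPM in hypoxia. Its groups did not overlap, but its log2 fold change of -0.32 ± 0.10 (adjusted p = 0.0209) was within the fold limit. The log2 ratio of Mcm5 to Mcm7, chosen after the values were seen, was 1.86 ± 0.13 (SE) lower in hypoxia (exact p = 0.1). Mcm7 shares 7.25% of its exon bases with Ap4m1 and 1.45% with Cops6 on the other strand, and without the strand setting, reads from these genes may be among its counts. The mean of Mcm2 to Mcm7 relative to the mean of Orc2 to Orc5 was 2.57-fold lower in hypoxia, a log2 difference of -1.36 ± 0.09 (SE, exact p = 0.1).

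**Figure D3:**
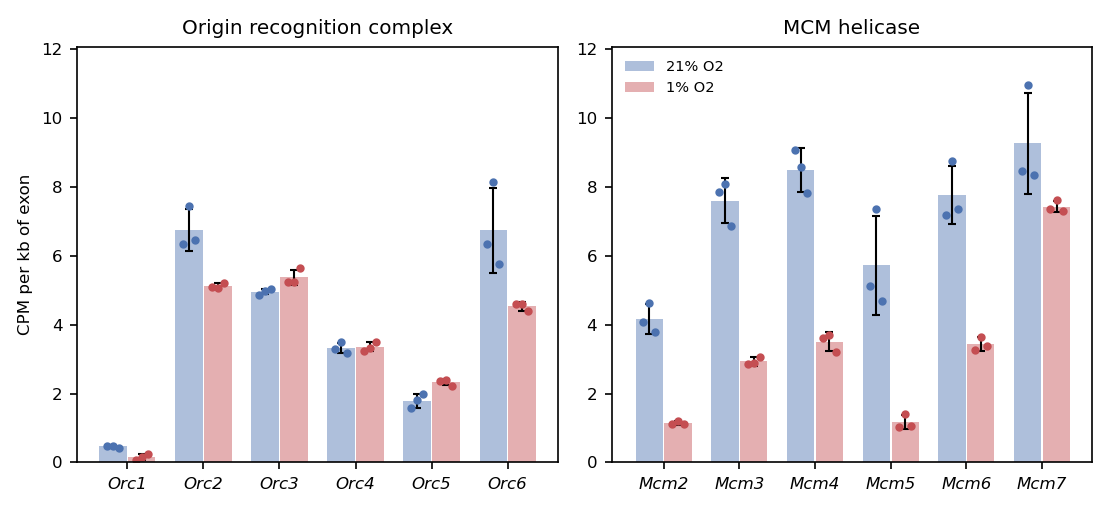
Levels of the origin recognition complex genes (left) and of the MCM helicase genes (right) in CPM per kb of exon, with bars for the mean of 3 samples, error bars for the SD and points for the samples. Mcm2 and Mcm5 at 1% O2 (1.15 and 1.17) lie far below their levels at 21% O2. Mcm7 (7.42) and Orc2 to Orc5 lie nearer to theirs, with Orc2 lower (5.13 against 6.75) and Orc5 higher (2.33 against 1.79).

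Among the 8 genes that turn loaded helicases into moving forks, 6 fell and none rose (median log2 fold change -0.75). Gins1, a subunit of the GINS complex that travels with the helicase, was at 3.23, 3.61 and 4.14 CPM in normoxia and 0.668, 1.18 and 1.01 CPM in hypoxia. The groups were well apart, and Gins1 was 3.79-fold lower (log2 fold change -1.92 ± 0.24, adjusted p = 0.000109). Its partners fell less or were not called, with log2 fold changes of -0.85 for Gins2, -0.65 for Gins4 and -0.19 for Gins3, which had an adjusted p of 0.355. The call of Gins4 was lost with length correction (-0.46). Gins2 shares 67.3% of its exon bases with Gse1 on the other strand, and its value is uncertain for the same reason as that of Mcm7. Mcm10, an initiation factor that helps to activate the helicase, and Cdc45, its core cofactor, fell with log2 fold changes of -1.25 and -0.85. Cdc45 shares 5.96% of its exon bases with Ufd1 on the other strand, which had 11313 counts against 1053, so its value is uncertain as well. Cdc7, the kinase that phosphorylates the MCM ring, was at 6.08, 8.54 and 7.42 CPM in normoxia and 8.17, 7.18 and 8.14 CPM in hypoxia. The groups overlapped (log2 fold change 0.09, 95% interval -0.23 to 0.41, adjusted p = 0.596). Dbf4, the regulatory subunit that activates CDC7, was at 13.2, 13.1 and 13.5 CPM in normoxia and 8.21, 8.42 and 9.77 CPM in hypoxia and was called lower at -0.59 ± 0.10, just past the fold limit, a call that was lost without hypoxia replicate 1 (-0.55), without hypoxia replicate 2 (-0.56) and with a filter of 1 CPM in 3 samples (-0.58).

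In the polymerase alpha-primase complex, which lays down the primers for both strands, Pola1 and Prim1 fell, Pola2 rose and Prim2 was not called. Pola1, the catalytic polymerase subunit on chromosome X (GRCm38, 93304767 to 93632155, minus strand), was at 12.4, 13.1 and 12.1 CPM in normoxia and 4.20, 5.30 and 4.21 CPM in hypoxia. Pola2, the regulatory B subunit on chromosome 19 (GRCm38, 5940542 to 5964202, minus strand), was at 17.8, 20.6 and 18.8 CPM in normoxia and 36.6, 35.4 and 34.2 CPM in hypoxia. In neither gene did the groups overlap, with Pola1 low and Pola2 high in all hypoxic samples. Pola1 fell 2.73-fold (log2 fold change -1.45 ± 0.12, adjusted p = 1.08e-05), and Pola2 rose 1.86-fold (0.89 ± 0.07, adjusted p = 8.62e-06). Pola2 was the only one of the 55 genes called higher, and it was called higher in every alternative analysis at the fold limit of 1.5. No other annotated gene shares exon bases with it. The log2 ratio of Pola2 to Pola1, chosen after the values were seen, was 0.59 ± 0.07 in normoxia and 2.83 ± 0.18 in hypoxia (SD), a difference of 2.24 ± 0.11 (SE, exact p = 0.1). Of the primase subunits, the catalytic Prim1 fell 2.40-fold, while the large subunit Prim2 had overlapping groups and a log2 fold change of -0.22 (95% interval -0.54 to 0.09).

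The promoters of 4 of these genes show how unevenly the E2F sequence is spread among them. E2F factors bind a core of 7 bases, searched here on either strand as TTNNCGC with C or G in place of each N. The stretches below are the 180 bases just before the transcription start, from RefSeq on GRCm38.p6, written 5′ to 3′ along the strand of the gene with every core in capitals, and none of them holds an annotated exon. Neighbouring cores on opposite strands can overlap and then read as a longer run of capitals. Mcm5 (chr8:75109329-75109508, plus strand) and Mcm6 (chr1:128359706-128359885, minus strand) are shown as helicase genes that fell, and Pola1 (chrX:93632156-93632335, minus strand) and Pola2 (chr19:5964207-5964386, minus strand) as subunits of the same complex that moved apart.
Mcm5: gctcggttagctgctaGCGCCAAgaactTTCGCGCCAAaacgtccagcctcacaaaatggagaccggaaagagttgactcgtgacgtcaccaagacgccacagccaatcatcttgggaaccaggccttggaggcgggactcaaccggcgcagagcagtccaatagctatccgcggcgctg
Mcm6: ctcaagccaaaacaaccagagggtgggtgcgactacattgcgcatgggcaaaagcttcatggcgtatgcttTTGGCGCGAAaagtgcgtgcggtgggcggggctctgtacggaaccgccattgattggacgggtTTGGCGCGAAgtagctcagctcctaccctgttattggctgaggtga
Pola1: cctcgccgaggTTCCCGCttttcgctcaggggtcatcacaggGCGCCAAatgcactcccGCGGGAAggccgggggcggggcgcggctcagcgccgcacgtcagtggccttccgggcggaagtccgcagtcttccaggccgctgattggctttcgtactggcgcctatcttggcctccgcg
Pola2: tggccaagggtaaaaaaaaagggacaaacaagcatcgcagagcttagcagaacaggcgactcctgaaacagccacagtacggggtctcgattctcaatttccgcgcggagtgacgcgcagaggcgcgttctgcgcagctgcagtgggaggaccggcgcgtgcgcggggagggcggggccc
The Mcm5 stretch holds 3 cores, that of Mcm6 holds 4 and that of Pola1 holds 3, whereas that of Pola2 holds 0. These 4 genes do not stand for the rest. Mcm2, Mcm3, Rrm2, Tk1 and Brca1 also fell and hold 0 cores in the same stretch, while Cdc6 and Prim1 fell and hold 1 each.

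A promoter of 300 bases, from 250 before to 50 after the start, was in the reference table for 47 of the 55 genes. It was absent for Gins1, Gins2, Gins4, Mcm4, Rfc2, Prim2, Pole and Ccne2. The E2F core was in 30 of the 47 (63.8%), against 9.57% of all 32851 promoters in the table and 18.8% of those of 11127 tested genes. Its presence did not separate the genes by their change. The core was in 19 of the 29 genes that fell and in 11 of the 18 others, and the median log2 fold change was -0.74 with the core and -0.75 without it. Pold3, which did not fall, was among the genes with the core. The CCAAT box was in 26 of the 47 (55.3%, against 37.4% of all promoters and 42.7% of those of tested genes), with a median log2 fold change of -0.96 where present and -0.59 where absent. The cell cycle homology sequence TTTGAA was in 7 of the 47 (14.9%, against 17.9% of all promoters and 14.3% of those of tested genes). The core of the hypoxia response element, ACGTG or GCGTG, was in 33 of the 47 (70.2%, against 43.8% of all promoters and 66.2% of those of tested genes). A match of letters is a description and not a bound site. By position, 11 of the 55 genes lay on chromosome 5, among them Rfc1, Rfc2, Rfc3 and Rfc5, where 6.46% of tested genes lie.

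Of the 5 genes of polymerases delta and epsilon, which copy the bulk of the lagging and leading strands, 3 fell and none was called higher. Pole, the catalytic subunit of polymerase epsilon, was at 6.93, 7.67 and 6.78 CPM in normoxia and 2.87, 2.20 and 2.04 CPM in hypoxia. The groups were far apart, and Pole was 3.02-fold lower (log2 fold change -1.60 ± 0.16, adjusted p = 3.44e-05). Its accessory subunit Pole2 (-0.74) and the delta subunit Pold2 (-0.93) also fell. Pold1, the catalytic subunit of polymerase delta, had a log2 fold change of -0.21 (95% interval -0.46 to 0.03, adjusted p = 0.117) and was not called. Pold3, an accessory delta subunit that contacts the clamp, was at 13.9, 15.6 and 15.7 CPM in normoxia and 18.8, 21.3 and 21.8 CPM in hypoxia. Every hypoxic sample was above the normoxic ones, at a log2 fold change of 0.46 ± 0.09 (adjusted p = 0.00159) within the fold limit.

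The 6 genes of the clamp and its loader had log2 fold changes between -0.75 and -0.25. All 6 were lower at the adjusted p, and 3 of them, Rfc3, Rfc4 and Rfc5, also passed the fold limit. The call of Rfc4 was lost with length correction (-0.55), and that of Rfc3 was lost without hypoxia replicate 2 (-0.56). Pcna, the sliding clamp that holds polymerases on DNA, was the most abundant of the 55 genes per kb of exon (34.1 CPM per kb in normoxia and 23.2 in hypoxia), and it was at 78.7, 88.1 and 78.7 CPM in normoxia and 51.5, 60.9 and 54.9 CPM in hypoxia. The groups did not overlap, and the log2 fold change of -0.55 ± 0.08 (adjusted p = 0.000204) was just within the fold limit. Its pseudogenes held at most 11 counts in a sample. Rfc5, a small subunit of the clamp loader, was at 13.1, 15.0 and 12.0 CPM in normoxia and 7.66, 8.20 and 7.95 CPM in hypoxia, a log2 fold change of -0.75 ± 0.11 (adjusted p = 0.000272). Rfc1, the large subunit, was at 54.7, 59.9 and 54.3 CPM in normoxia and 47.9, 46.2 and 47.6 CPM in hypoxia, a log2 fold change of -0.25 ± 0.06 (adjusted p = 0.00415). The samples of the groups stood apart in both genes, but by less in Rfc1 on the log2 scale. Relative to the mean of Rfc2 to Rfc5, Rfc1 was 0.30 ± 0.02 higher in hypoxia on the log2 scale (SE, exact p = 0.1). The 12.7% of Rfc4 exon bases shared with Eif4a2 on the other strand leave its value uncertain, since Eif4a2 had 52363 counts against 810 for Rfc4. The same holds for the 10.7% of Rfc5 shared with Wsb2 (20690 counts against 1735 for Rfc5).

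All 3 subunit genes of RPA, the complex that coats single-stranded DNA at the fork, were lower at the adjusted p. Rpa1, the large DNA-binding subunit, was at 66.6, 67.1 and 63.1 CPM in normoxia and 34.2, 30.8 and 34.2 CPM in hypoxia. It was 1.98-fold lower with no overlap (log2 fold change -0.99 ± 0.06, adjusted p = 1.81e-06). Rpa2 fell 1.72-fold. Rpa3, the small subunit, was at 13.1, 14.7 and 11.6 CPM in normoxia and 10.1, 8.71 and 7.54 CPM in hypoxia, which also did not overlap. Its log2 fold change of -0.58 ± 0.13 (adjusted p = 0.00395) lay just within the fold limit, and it was -0.67, past the limit, with correction for GC content and -0.36 (adjusted p = 0.0415) with correction for gene length.

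Both genes that finish Okazaki fragments fell. Fen1, the nuclease that trims the flaps between fragments, was at 14.8, 16.4 and 12.7 CPM in normoxia and 7.07, 7.02 and 6.22 CPM in hypoxia, or 2.16-fold lower (log2 fold change -1.11 ± 0.12, adjusted p = 4.20e-05). Lig1, the ligase that seals them, was at 17.9, 19.5 and 19.3 CPM in normoxia and 11.7, 12.2 and 12.9 CPM in hypoxia, or 1.54-fold lower (-0.62 ± 0.08, adjusted p = 0.000135). Neither gene had overlapping groups. Fen1 shares 78.8% of its exon bases with the antisense gene Gm10143, which had 60 counts, and 5.37% with Tmem258, which had 7894 counts against 1727 for Fen1, and without the strand setting its value is uncertain. Lig1 shares 5.79% of its exon bases with Zswim9 on the other strand, which had 1988 counts against 2549 for Lig1, so its value is uncertain too. The call of Lig1 was lost with GC correction, where its log2 fold change was -0.58.

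Nucleotide supply held the deepest fall. Rrm2, the small subunit of ribonucleotide reductase, which makes deoxynucleotides and is limiting in S phase, lies on chromosome 12 (GRCm38, 24708241 to 24714146, plus strand) and was at 21.4, 27.6 and 19.8 CPM in normoxia and 2.63, 4.37 and 3.21 CPM in hypoxia. Every hypoxic sample was far below every normoxic one, and Rrm2 was 6.68-fold lower (log2 fold change -2.74 ± 0.19, adjusted p = 3.26e-06). The large subunit gene Rrm1 went from 73.9 ± 1.52 to 43.8 ± 0.299 CPM (SD), or 1.69-fold lower. The log2 ratio of Rrm2 to Rrm1 was 1.85 ± 0.23 (SE) lower in hypoxia (exact p = 0.1). Rrm2b, the p53-inducible alternative small subunit, was at 12.3, 11.7 and 10.6 CPM in normoxia and 10.3, 11.2 and 10.9 CPM in hypoxia, so its groups overlapped (log2 fold change -0.10, 95% interval -0.31 to 0.11). Relative to Rrm2, Rrm2b was 2.50 ± 0.20 (SE) higher on the log2 scale in hypoxia, with no overlap (exact p = 0.1).

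Of the other nucleotide genes, Tk1, the S phase thymidine kinase of the salvage pathway, was at 22.8, 33.8 and 26.3 CPM in normoxia and 6.60, 5.94 and 7.26 CPM in hypoxia. Tyms, which makes thymidylate by the de novo route, was at 21.1, 20.9 and 19.0 CPM in normoxia and 6.48, 7.63 and 8.05 CPM in hypoxia. Both thymidylate genes thus fell without overlap, Tk1 4.18-fold and Tyms 2.75-fold. Dut, which removes dUTP and so keeps uracil out of DNA, was at 16.3, 17.8 and 18.8 CPM in normoxia and 17.2, 18.2 and 16.2 CPM in hypoxia. Its groups overlapped, and its log2 fold change of -0.04 had a 95% interval of -0.23 to 0.15 (adjusted p = 0.720).

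**Figure D4:**
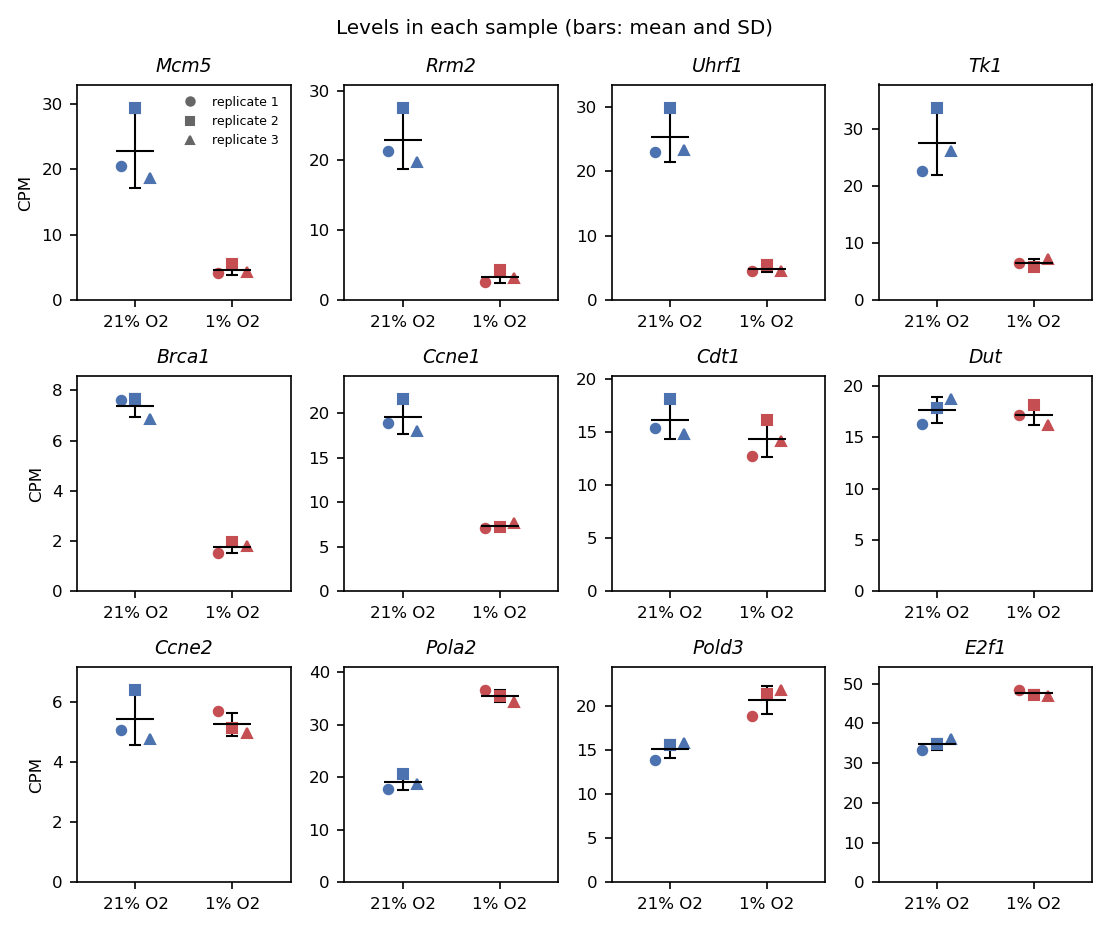
Level in CPM of 12 of the genes in each sample at 21% O2 (blue) and 1% O2 (red), with symbols for the replicate number and bars for mean and SD, on vertical axes that start at 0. In Mcm5, Rrm2, Uhrf1, Tk1, Brca1 and Ccne1 the hypoxic samples lie far below the normoxic ones, in Cdt1, Dut and Ccne2 the groups overlap, and in Pola2, Pold3 and E2f1 the hypoxic samples lie above.

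The 3 genes that restore chromatin and DNA methylation behind the fork all fell. Uhrf1, which reads hemimethylated DNA and recruits the maintenance methyltransferase, lies on chromosome 17 (GRCm38, 56303321 to 56323486, plus strand) and was at 23.0, 29.9 and 23.2 CPM in normoxia and 4.56, 5.52 and 4.62 CPM in hypoxia. It was 5.17-fold lower without overlap (log2 fold change -2.37 ± 0.13, adjusted p = 1.01e-06). Chaf1a and Chaf1b encode subunits of the chromatin assembly factor CAF-1, which deposits histones on new DNA. Chaf1a was at 20.6, 23.9 and 20.2 CPM in normoxia and 10.4, 10.02 and 11.7 CPM in hypoxia, a log2 fold change of -1.01 ± 0.10 (adjusted p = 2.72e-05), and Chaf1b fell by 1.28 on the log2 scale. Chaf1a shares 52.5% of its exon bases with Ubxn6 on the other strand and its value is therefore uncertain. Dnmt1, the methyltransferase that UHRF1 recruits, was lower without overlap (adjusted p = 6.15e-05), but its log2 fold change of -0.51 was within the fold limit.

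The pair of breast cancer susceptibility genes that act in homologous recombination differed. Brca1, on chromosome 11 (GRCm38, 101488764 to 101551955, minus strand), was at 7.62, 7.67 and 6.86 CPM in normoxia and 1.53, 1.98 and 1.79 CPM in hypoxia. Brca2 was at 7.16, 5.39 and 5.19 CPM in normoxia and 4.24, 5.11 and 4.97 CPM in hypoxia. Brca1 was 4.15-fold lower (log2 fold change -2.05 ± 0.15, adjusted p = 5.21e-06). Every hypoxic sample lay below the normoxic ones in Brca2 too, but its log2 fold change of -0.31 ± 0.16 did not pass the test (adjusted p = 0.124, 95% interval -0.67 to 0.06). The log2 ratio of Brca1 to Brca2, chosen after the values were seen, was 1.53 ± 0.12 (SE) lower in hypoxia (exact p = 0.1).

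The regulators of S phase entry also divided. Ccne1, an E cyclin that activates CDK2, was at 18.9, 21.6 and 18.1 CPM in normoxia and 7.11, 7.28 and 7.67 CPM in hypoxia, or 2.65-fold lower without overlap (log2 fold change -1.41 ± 0.10, adjusted p = 3.35e-06). The other E cyclin gene, Ccne2, was at 5.08, 6.41 and 4.79 CPM in normoxia and 5.69, 5.14 and 4.97 CPM in hypoxia. Its groups overlapped (log2 fold change -0.05, 95% interval -0.38 to 0.29, adjusted p = 0.797), and it shares 17.4% of its exon bases with Ints8 on the other strand, which had 5962 counts against 883, so its value and any ratio to it are uncertain. The log2 ratio of Ccne1 to Ccne2 was 1.32 ± 0.09 (SE) lower in hypoxia (exact p = 0.1). E2f1, an activating E2F factor, was at 33.3, 34.8 and 36.0 CPM in normoxia and 48.5, 47.2 and 46.9 CPM in hypoxia. All hypoxic samples were above the normoxic ones, at 0.45 ± 0.06 on the log2 scale (adjusted p = 0.000104), within the fold limit.

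Several of these calls lay close to the fold limit of 1.5, which is 0.585 on the log2 scale. Just past it were Dbf4 (-0.59), Lig1 (-0.62), Rfc3 (-0.62) and Gins4 (-0.65), and just short of it were Rpa3 (-0.58), Orc6 (-0.58) and Pcna (-0.55). The 5 genes that kept under 25% of their normoxic mean, Rrm2, Uhrf1, Mcm5, Brca1 and Tk1, were far from it.

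A second list of 72 replication and S phase genes outside the 55 was examined, of which 71 were matched and tested. In it 29 genes fell and 1 rose, with a median log2 fold change of -0.49. The 5 lowest were Exo1, a nuclease of mismatch repair and resection (-2.78), Pclaf, a clamp-binding factor (-2.69), Dscc1, of an alternative clamp loader (-2.37), Ccna2, the cyclin of S and G2 phase (-2.35), and Top2a, the topoisomerase that untangles replicated DNA (-2.25). Pclaf was at 12.7, 16.7 and 12.4 CPM in normoxia and 1.69, 2.43 and 2.29 CPM in hypoxia. Top2a was at 54.0, 62.1 and 53.8 CPM in normoxia and 11.2, 10.8 and 13.6 CPM in hypoxia. In both genes the groups were far apart. Exo1 and Dscc1 rest on few counts in hypoxia, at 15, 16 and 18 for Exo1 and 8, 11 and 11 for Dscc1. The gene that rose was Atr, the kinase that senses stalled forks, at 14.4, 15.6 and 15.1 CPM in normoxia and 33.7, 34.1 and 36.4 CPM in hypoxia. Its log2 fold change was 1.21 ± 0.07 (adjusted p = 9.91e-07), whereas those of its partner Atrip (0.11) and of its target kinase Chek1 (0.08) were not called. Among the E2F genes of this list, E2f2 (-1.69), E2f7 (-1.59) and E2f8 (-2.15) fell, and E2f3 (-0.06) was not called.

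All 25 of the listed genes of mitosis fell. Their median log2 fold change was -2.20, and their summed level was 358, 434 and 356 CPM in normoxia and 75.6, 86.0 and 95.2 CPM in hypoxia, with no overlap. The lowest were Ccnb1, the mitotic cyclin (-2.96), Cenpf, a kinetochore protein (-2.95), and Hmmr, a spindle protein (-2.84).

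**Figure D5:**
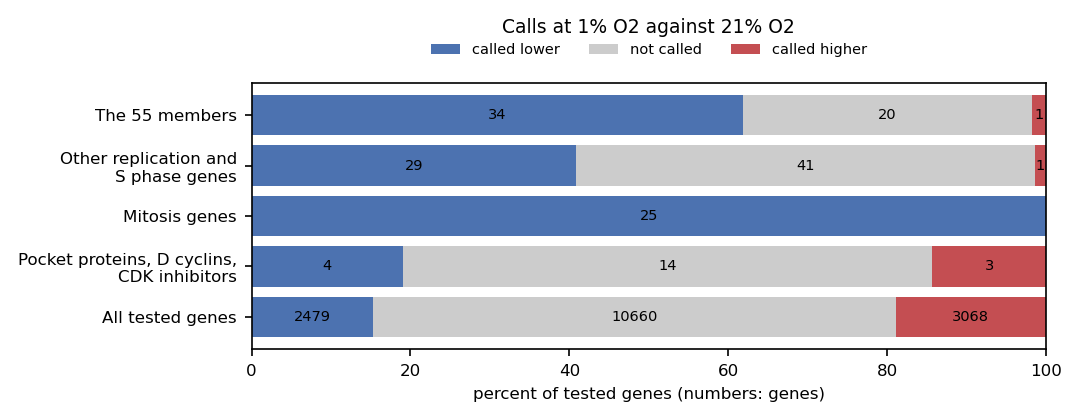
Percent of the tested genes of each list called lower (blue), not called (grey) or called higher (red) at 1% O2 against 21% O2, with the number of genes in each segment. The blue segment holds 34 of the 55 replication genes, 29 of 71 in the second replication list and 25 of 25 mitosis genes, against 15.3% of all tested genes.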

How the data were processed

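Poly(A) RNA of 6 samples was sequenced by the authors on a NovaSeq-6000, trimmed with Cutadapt, mapped to GRCm38 with STAR 2.6.1b and assigned to genes with RSEM 1.3.1. The deposited values are expected counts per gene, not normalized, of which 0 had a fraction, so that rounding changed nothing. The annotation release and the strand setting are not given in the sources used here. Gene names, coordinates and exon lengths came from GENCODE M21, in which 55240 of 55426 identifiers were found. Samples were grouped by their labels.

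The expected counts were fitted with edgeR 4.0.16 (R 4.3.3), with filterByExpr, TMM scaling, the quasi-likelihood F test and Benjamini-Hochberg adjustment over 16207 genes. The study used DESeq2 at the same thresholds, which is an alternative here, together with limma-voom, other scalings, filters and fold limits, GC and length corrections, the replicate number as a block, and each replicate left out. At these totals 3 counts are 0.094 to 0.121 CPM. No molecular identifiers were used as far as stated, so this floor covers counting error only. Ratios used log2(CPM + 0.5) and exact permutation tests over samples. On simulated data for this comparison (15968 genes), edgeR recovered 74 of 89 genes changed 2-fold (83.1%) and 107 of 110 changed 4-fold (97.3%), with 12 false calls and 0 of wrong sign.

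The 55 genes, the other lists and the tests were chosen with earlier results of these data known. Values in every sample are given for the lowest and the highest gene of each complex, the gene called higher and genes whose call changes with GC correction. Others with such values were chosen after they were seen.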

Additional observations from a re-analysis of the deposited data

How the results depend on the processing

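Over 18 alternative fits per gene, 47 of the 55 genes never changed their call and none changed direction between called values. The 8 that changed were Orc6, Gins4, Dbf4, Pcna, Rfc3, Rfc4, Rpa3 and Lig1, with log2 fold changes of -0.71 to -0.55. The number of genes called lower depended on the fold limit by construction. With a fold limit of 2 it was 21, with 0 called higher, and without a limit 4 were called higher. Over all tested genes, 5018 were lower and 5150 higher without a fold limit, and 1227 and 1929 at a limit of 2. In the second replication list 45 were lower and 7 higher without a limit. Leaving out each replicate gave 34 to 37 genes lower and 1 higher, a median log2 fold change of -0.78 to -0.66 (-0.66 without normoxia replicate 2), and 1 to 2 genes higher in the second list (2 without hypoxia replicate 1). Departures from the group mean correlated at 0.14, 0.14 and 0.04 across conditions within replicate numbers 1 to 3. Samples of unlike number were not correlated, so these values cannot decide whether the numbers pair the samples. The macrophage marker sum fell in the order of replicates 2, 3 and 1 in both groups. The main fit left the replicate number out. With it as a block, 34 genes were lower and 1 higher, and 2500 were lower and 3072 higher over all genes. Genes under 5 CPM in normoxia, Orc1, Gins1, Gins3 and Mcm10, have the least depth.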

Other observations

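Among 21 genes of pocket proteins, D cyclins, their kinases and CDK inhibitors, 4 fell and 3 rose (19.0% and 14.3%), near the 15.3% and 18.9% of all tested genes, so nothing is read from these counts and the values of single genes follow. The inhibitor genes Cdkn1b and Cdkn1c, which encode p27 and p57, rose with log2 fold changes of 1.08 and 0.94, and Cdkn1a, which encodes p21, rose by 0.61, from 307, 289 and 302 CPM in normoxia to 465, 472 and 430 CPM in hypoxia. Cdkn2c, which encodes the CDK4 and CDK6 inhibitor p18, instead fell, from 39.3, 56.5 and 35.6 CPM to 8.60, 8.49 and 8.96 CPM (-2.33). The pocket protein gene Rbl1 (-1.28), Ccnd1 (-1.22) and Cdk6 (-0.59) also fell. Ccnd1 was highest in the libraries with the most macrophage marker RNA in each group, at 44.9 CPM in normoxia replicate 2 and 21.3 CPM in hypoxia replicate 2, and the part of that RNA in its change was not tested. The epithelial keratin gene Krt19 was at 0.455 to 1.04 CPM in normoxia and 20.6 to 23.9 CPM in hypoxia.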
